A study of Mus musculus with 6 samples.

Results

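Mitochondria make most of the ATP of a resting cell by oxidative phosphorylation. Complexes I and II pass electrons from NADH and succinate to coenzyme Q, complex III passes them on to cytochrome c, and complex IV reduces oxygen to water. Complexes I, III and IV pump protons across the inner membrane, and the ATP synthase, complex V, uses their return to make ATP. Complex II is encoded in the nucleus alone, whereas the other complexes combine nuclear subunits with a few subunits from mitochondrial DNA. Leukaemic lymphoblasts use this pathway beside glycolysis.

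The nuclear genes of these complexes were taken by the start of their symbol. A probe set was included when its only annotated symbol started with Ndufa, Ndufb, Ndufc, Ndufs, Ndufv, Sdh, Uqcr, Cox4, Cox5, Cox6, Cox7, Cox8 or Atp5 and held no pseudogene suffix. This gave 101 probe sets of 91 genes, out of 22180 genes with a probe set of a single symbol. The brightest probe set stood for a gene. By prefix, 42 genes belonged to complex I, 8 to complex II, 7 to complex III, 17 to complex IV and 17 to complex V. Of the 91, 79 encode structural subunits or close relatives of subunits, and the other 12 (8 Ndufaf and 4 Sdhaf genes) encode assembly factors. The rule uses symbols and, to pick among a gene's probe sets, mean brightness, but the gene group was chosen with earlier results of these data known.

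The cells were mouse B-ALL lymphoblasts (acute lymphoblastic leukaemia of B-cell precursors) driven by the kinase fusion BCR-ABL. In 3 samples they received 312 nM DHA (dihydroartemisinin, to which artemisinin drugs are converted in the body), and in 3 samples the vehicle DMSO. Both groups were treated for 4 h per the treatment protocol, although the extraction protocol also mentions 2 h. Biotin-labelled cRNA was read on Affymetrix arrays, 1 array a sample. All samples share the cell type label, and the growth protocol covers lines with p185 BCR-ABL, with or without T315I, that lack Arf or p53. The labels name neither the line used nor separate cultures, so a p-value reflects only how far these samples vary, and that variation may be technical.

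Array medians lay between 5.25 and 5.31 on the log2 scale, and correlations between arrays over genes lay between 0.9965 and 0.9977. B-lineage markers were bright, with vehicle means of 12.71 for Cd79a, 12.63 for Cd79b, 11.70 for Ebf1 and 10.85 for Pax5. Of 8 T and NK cell markers, 5 lay under the filter on dim genes (4.52), and the brightest vehicle mean was 4.87, for Cd8b1. Of 8 myeloid markers 3 lay under it, and the brightest was Elane at 5.24. Col1a1 was the brightest stromal marker at 6.27. For erythroid cells Klf1 and Epor were measured, at 5.41 and 5.58. The pre-B marker Vpreb1 was dim, at 4.78, whereas its relative Vpreb2 read 8.54. None of the tested markers of these cell types, B lineage included, was called changed. Of 12 B-lineage markers, however, 3 were lower at an unadjusted p under 0.05 (25%, against 6.08% of all tested genes), each with groups apart. They were Rag2 (-0.53, SE 0.15), Cd24a (-0.16, SE 0.052) and Igll1 (-0.12, SE 0.045), with limma adjusted p of 0.253, 0.320 and 0.363. The whole list was mixed, with 6 lower, 6 higher and a median of 0.0048, and Ebf1 (0.13, SE 0.057) was higher on every DHA array. The part of these markers in the results below was not tested.

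No member passed the test. Of the 91 genes, 88 lay above the filter and 0 of these were called, against 0.0902% of the 15526 tested genes (limma, Benjamini-Hochberg adjusted p at or under 0.05 over all tested genes). The smallest adjusted p of a member was 0.141, for Ndufa1. At an unadjusted p under 0.05 there were 11 members lower with DHA (12.5%) and 1 higher (1.14%). Over all tested genes the shares were 6.08% lower and 5.94% higher.

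In 75 of the 88 members the log2 fold change was below 0, a share of 85.2%, against 48.8% of all tested genes. In 13 it was above 0, against 51.2% of all tested genes. The median log2 fold change was -0.064 over the members and 0.0027 over all tested genes, so the median member stood at 95.7% of its vehicle level. The middle 50% of the members ran from -0.14 to -0.026. In 14 members every DHA array was lower than every vehicle array (15.9%, against 8.19% of all tested genes), and in 1 every DHA array was higher (1.14%, against 7.64%). The 95% interval of the change lay within 0.5 on the log2 scale on both sides of 0 for 79 of the 88 members. Changes larger than that lay outside the interval for these 79. The same held for 14599 of the 15526 tested genes, so it is no trait of the members. The members were brighter than the tested genes as a whole (mean level on the vehicle arrays 9.21 against 7.24), and the shares were not matched for brightness. With the filter at the 50th percentile, 84.5% of the members and 52.1% of all tested genes were below 0. These counts and medians describe the list and carry no test.

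**Figure D1:**
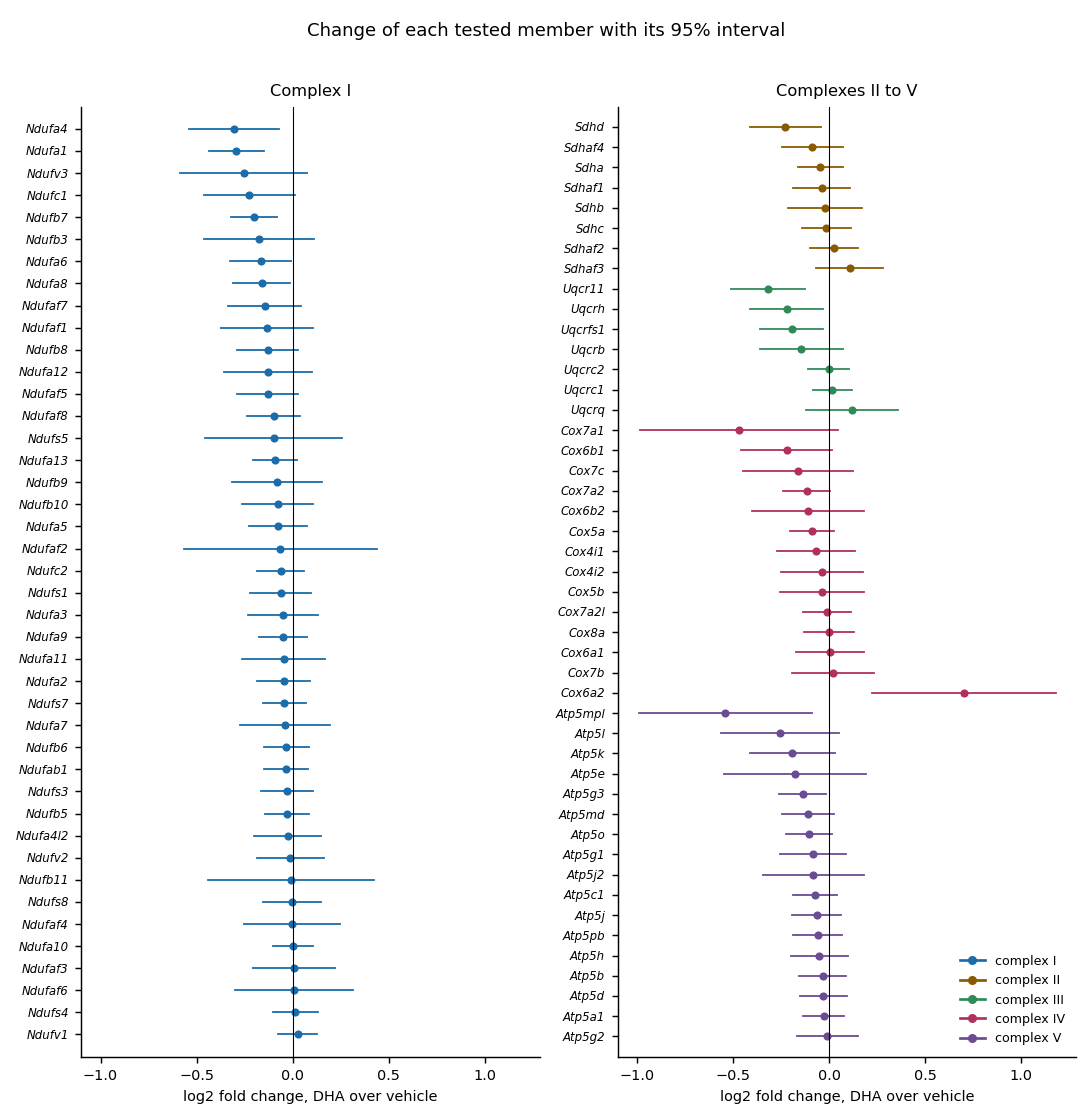
Log2 fold change (DHA over vehicle, horizontal axis) of each of the 88 tested members with its unadjusted 95% interval from limma. Points are genes, coloured by complex, and 75 of them lie left of 0. Cox6a2 (0.70) lies farthest to the right and Atp5mpl (-0.54) farthest to the left.

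The mean level of the 88 members was 9.22, 9.24 and 9.16 in vehicle replicates 1, 2 and 3 and 9.16, 9.14 and 9.07 in DHA replicates 1, 2 and 3. Vehicle replicate 3 stood level with DHA replicate 1, and DHA replicate 3 stood below all others. Vehicle replicate 2 was the highest array for 39 of the 88 members and DHA replicate 3 the lowest for 33. Without DHA replicate 3, 61 members had a log2 fold change below 0 (median -0.061), and without vehicle replicate 2, 70 had (median -0.053). With both left out, a choice made after seeing the data, 59 had (67.0%, median -0.046, against 50.2% of all tested genes). The mean over all tested genes was 7.24 or 7.25 in every array. What sets these arrays apart was not tested. In RNA from a cell population, less RNA per cell and fewer cells that express a gene cannot be told apart.

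**Figure D2:**
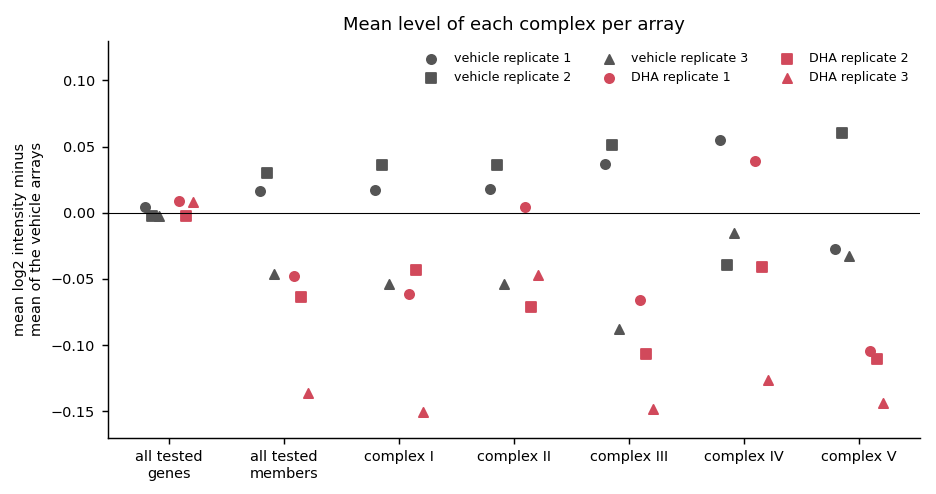
Mean log2 intensity of each complex on each array, minus the mean of the 3 vehicle arrays (vertical axis, log2 units). Grey symbols are vehicle and red symbols DHA, with 1 shape per replicate number, which names an array and pairs nothing. DHA replicate 3 is the lowest array for all tested members and for complexes I, III, IV and V, and for complex V each DHA array is below each vehicle array.

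Promoters of such genes are known for sites of NRF1 (nuclear respiratory factor 1), of the ETS-family factor GABP and of YY1. Windows of 300 bases, 250 before the annotated start and 50 from it on, were taken from RefSeq (GRCm38.p6) for the 76 members that it matched by gene identifier. The NRF1 letters, GCGCA and GCGC with any 1 base between them, searched like the others on both strands, were in 19 of the 76 (25%) and in 5.19% of 27025 genes of all kinds with such a window. CCGGAAG (ETS family) was in 22 members (28.9%, against 9.93%). AAGATGGCG (YY1) was in 7 (9.21%, against 1.64%). TGATGNAA, the letters of the composite element bound by ATF4, were in 0 of the 76 windows, against 4.51% of all genes. None of these motifs contains another, and a gene with several windows was counted once. The shares were not tested, and the genes of all kinds were not matched to the members by expression or base composition.

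Members with and without the NRF1, ETS or YY1 letters had similar median changes, which were not tested against each other. The median log2 fold change was -0.078 in the 19 tested members with the NRF1 letters and -0.065 in the 55 without. It was -0.082 in the 22 with the ETS letters and -0.076 in the 52 without. For the YY1 letters it was -0.065 in the 7 with them and -0.078 in the 67 without. The ATF4 letters were in no member window, so they allow no such comparison. Stretches of 120 bases just before the start follow for some members of complexes I, III and IV named below, to show where the letters lie. They come from a list picked by hand, less the stretches that another RefSeq gene overlaps. Each one printed holds the NRF1 or the ETS letters, so they do not show how common the letters are. Capitals mark the NRF1 letters (10 bases) and the ETS letters (7 bases), read 5′ to 3′ on the strand of the gene. They are matches and not shown to be sites.
Ndufb7, chr8:83566638-83566757, plus strand: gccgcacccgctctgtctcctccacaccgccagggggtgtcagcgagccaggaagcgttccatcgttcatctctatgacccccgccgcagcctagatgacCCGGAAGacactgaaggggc
Ndufa8, chr2:36049339-36049458, minus strand: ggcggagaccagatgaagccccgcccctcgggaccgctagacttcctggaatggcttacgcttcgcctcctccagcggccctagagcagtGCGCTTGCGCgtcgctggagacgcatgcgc
Uqcr11, chr10:80406822-80406941, minus strand: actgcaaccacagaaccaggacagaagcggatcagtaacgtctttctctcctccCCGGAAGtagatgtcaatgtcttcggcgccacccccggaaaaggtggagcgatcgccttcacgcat
Uqcrh, chr4:116075071-116075190, minus strand: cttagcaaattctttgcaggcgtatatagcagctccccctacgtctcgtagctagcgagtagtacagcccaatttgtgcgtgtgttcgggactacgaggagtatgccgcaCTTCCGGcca
Cox6a1, chr5:115348959-115349078, minus strand: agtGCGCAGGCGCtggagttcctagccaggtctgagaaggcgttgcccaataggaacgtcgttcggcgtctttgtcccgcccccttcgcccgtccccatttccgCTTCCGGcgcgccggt
Cox6b1, chr7:30626115-30626234, minus strand: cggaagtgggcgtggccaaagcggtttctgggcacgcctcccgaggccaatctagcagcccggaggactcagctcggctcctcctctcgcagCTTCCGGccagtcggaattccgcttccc

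Complex I, the NADH dehydrogenase, had 42 tested members, of which 37 had a log2 fold change below 0 and 0 were called (median -0.062). At an unadjusted p under 0.05 there were 5, all lower (11.9%, against 6.08% of all tested genes). Dropping vehicle replicate 3 moved the median to -0.096, and dropping vehicle replicate 2 together with DHA replicate 3 moved it to -0.025. Ndufa1, a small X-linked subunit of the membrane arm, had the smallest p of all members. Its log2 intensity was 7.74, 7.82 and 7.66 in vehicle replicates 1 to 3 and 7.41, 7.51 and 7.42 in DHA replicates 1 to 3. The groups did not overlap, and DHA minus vehicle was -0.29 in log2 units (SE 0.060, n = 3 per group; limma adjusted p = 0.141), with a 95% interval from -0.44 to -0.15. Ndufb7, an accessory subunit on the intermembrane side, read 9.93, 9.92 and 9.95 with vehicle and 9.69, 9.81 and 9.70 with DHA. Its groups also stood apart, by -0.20 (SE 0.050; limma adjusted p = 0.213). Its promoter stretch above holds the ETS letters.

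Ndufa4 carries a complex I name, although its product is now assigned to complex IV. It read 10.49, 10.69 and 10.48 with vehicle and 10.26, 10.41 and 10.08 with DHA, again with no overlap (-0.30, SE 0.098; limma adjusted p = 0.310). Ndufa8, another intermembrane-side subunit, whose stretch above holds the NRF1 letters, had -0.16 (SE 0.062; limma adjusted p = 0.376), with groups apart. A second, dimmer probe set of Ndufa8 had -0.034 with overlapping groups. Ndufa4l2, a paralogue of Ndufa4 known as a hypoxia-induced gene, lay just above the filter at 4.57 ± 0.035 (SD, n = 3) on the vehicle arrays and 4.54 ± 0.13 (SD, n = 3) on the DHA arrays.

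**Figure D3:**
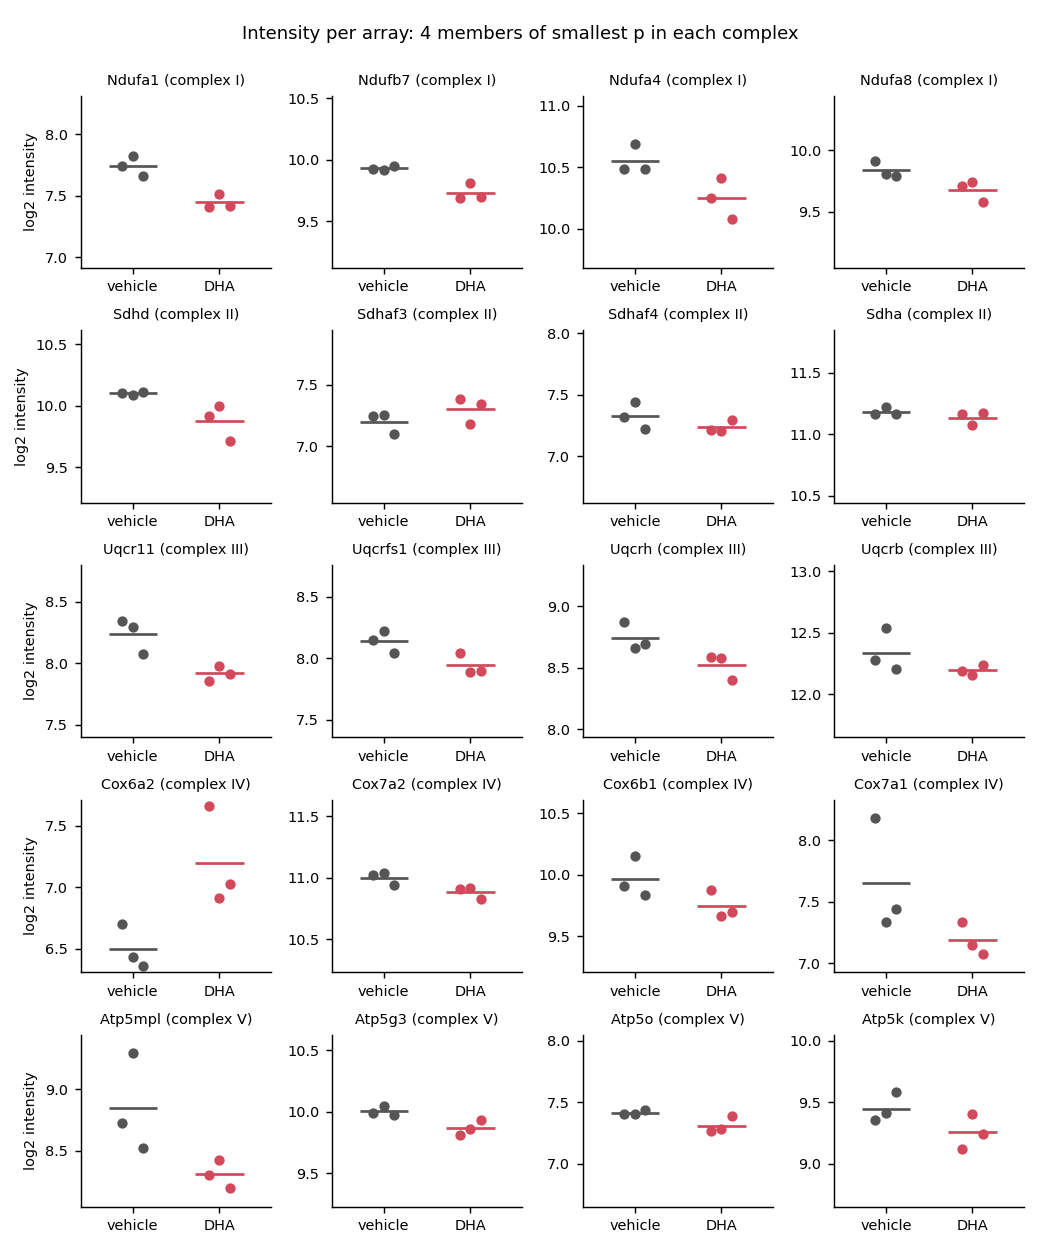
Log2 intensity (vertical axis, the same span in each panel) of the 4 members with the smallest limma p in each complex. Points are arrays, 3 vehicle (grey) and 3 DHA (red), and lines are group means. Cox6a2 is higher on each DHA array than on any vehicle array, the groups of Ndufa1, Ndufb7, Sdhd, Uqcr11 and Atp5mpl are apart the other way, and those of Sdha and Uqcrb overlap.

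By part of complex I, the NADH-oxidising N module at the tip of the matrix arm had a median log2 fold change of -0.046 over 9 members, of which 7 were lower. The Q module, which hands electrons to coenzyme Q, had -0.043 over 5, all of them lower. The membrane arm had -0.079 over 18, of which 17 were lower. Its groups were apart in 5, all lower (27.8%, against 8.19% of all tested genes). The assembly factors Ndufaf1 to Ndufaf8 had -0.082, with 6 lower and groups apart in 0 of 8, a list too short to compare with that share. Among the subunits that carry redox centres, Ndufv1, which binds NADH, had 0.026 (SE 0.043), Ndufs7, which holds the last iron-sulfur cluster before coenzyme Q, -0.043 (SE 0.046), and Ndufs1, with further clusters, -0.062 (SE 0.067). Over the 6 measured nuclear core subunits that bacteria share (Ndufv1, Ndufv2, Ndufs1, Ndufs3, Ndufs7 and Ndufs8) the median was -0.021, and over the 26 accessory subunits it was -0.078. This split was chosen after the values were seen and was not tested.

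Complex II, succinate dehydrogenase, is also an enzyme of the citric acid cycle. Of its 8 tested members 6 had a log2 fold change below 0 and 0 were called (median -0.032). At an unadjusted p under 0.05 there was 1, Sdhd, which was lower (12.5%, against 6.08% of all tested genes). The median was -0.0023 without DHA replicate 2, -0.015 without vehicle replicate 2, -0.022 without vehicle replicate 1, -0.053 without DHA replicate 1 and -0.060 without vehicle replicate 3. Sdhd, a membrane anchor that helps to bind coenzyme Q, read 10.10, 10.09 and 10.11 with vehicle and 9.91, 10.00 and 9.71 with DHA. These groups were apart, at -0.23 in log2 units (SE 0.078; limma adjusted p = 0.330), and without DHA replicate 3 the value was -0.15. The flavin-bearing catalytic subunit Sdha had -0.045 (SE 0.049), the iron-sulfur subunit Sdhb -0.024 (SE 0.081) and the second anchor, Sdhc, -0.015 (SE 0.054), each with overlapping groups. Among the assembly factors, Sdhaf3 had 0.11 (SE 0.073; 0.058 without vehicle replicate 3, 0.067 without DHA replicate 1 and 0.17 without DHA replicate 2), Sdhaf4 -0.087 (SE 0.067), Sdhaf1 -0.040 and Sdhaf2 0.026.

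Complex III, the cytochrome bc1 complex, had a median of -0.14 over 7 members, the lowest of the 5 complexes with all arrays. Of the 7 members, 5 were lower and 0 called. At an unadjusted p under 0.05 there were 3, all lower (42.9%, against 6.08% of all tested genes). Uqcr11, its smallest subunit, read 8.34, 8.29 and 8.07 with vehicle and 7.85, 7.98 and 7.92 with DHA. Every DHA array was lower, with -0.32 as the log2 fold change and a 95% interval from -0.51 to -0.13 (SE 0.080; limma adjusted p = 0.214). Uqcrh, the hinge protein that contacts cytochrome c1, had -0.22 (SE 0.080; adjusted p = 0.348, limma), with groups apart. Uqcrfs1, the Rieske iron-sulfur protein, had -0.19 (SE 0.069; adjusted p = 0.342, limma), where vehicle replicate 3 and DHA replicate 1 both read 8.04. The median rests on Uqcrb, the middle value of the 7, at -0.14 (SE 0.091). Vehicle replicate 2 of Uqcrb read 12.54 against 12.27 and 12.20 in the other vehicle arrays, and without that array the median of complex III was -0.043, no longer the lowest (complex IV, -0.085). The core proteins Uqcrc1 and Uqcrc2 had 0.015 (SE 0.043) and -0.0014 (SE 0.045), and Uqcrq, a small subunit, 0.12 (SE 0.10).

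Complex IV, cytochrome c oxidase, had 17 members, of which 14 were tested and 10 of those had a log2 fold change below 0 (median -0.052, 0 called). At an unadjusted p under 0.05 there was 1, Cox6a2, which was higher (7.14%, against 5.94% of all tested genes). Without DHA replicate 3 the median of complex IV was -0.0021, and it lay between -0.088 and -0.034 when any other single array was left out. Mammals carry tissue isoforms of several of its subunits. Cox6a2, the isoform of heart and skeletal muscle, read 6.70, 6.43 and 6.36 with vehicle and 7.66, 6.91 and 7.02 with DHA. Each DHA array was higher than each vehicle array, and this was the largest log2 fold change among the members, 0.70 or 1.62-fold (SE 0.20, 95% interval 0.22 to 1.18; limma adjusted p = 0.259). DHA replicate 1 was the highest array, and without it the value was 0.47. Its widely expressed counterpart Cox6a1, whose stretch above holds both the NRF1 and the ETS letters, had 0.0041 (SE 0.074).

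Cox7a1, likewise an isoform of heart and skeletal muscle, went the other way. It read 8.18, 7.34 and 7.44 with vehicle and 7.34, 7.15 and 7.08 with DHA, so vehicle replicate 2 and DHA replicate 1 coincide. Its log2 fold change was -0.47 (SE 0.22; limma adjusted p = 0.459), and -0.20 without vehicle replicate 1. The counterpart Cox7a2 had -0.12 (SE 0.051; adjusted p = 0.435, limma), with groups apart. Cox6b1, with the ETS letters in its stretch, had -0.22 (SE 0.099; adjusted p = 0.441, limma), and -0.13 without vehicle replicate 2. Its testis isoform Cox6b2 had -0.11 (SE 0.12), with values from -0.20 without vehicle replicate 2 to -0.0012 without DHA replicate 3.

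Of the remaining complex IV genes, Cox4i1, a regulatory subunit, had -0.068 (SE 0.086) and its lung isoform Cox4i2 -0.036 (SE 0.090). Cox5a had -0.091 (SE 0.048), with groups apart, while Cox5b had -0.036 (SE 0.092). Cox7b had 0.019 (SE 0.089) and Cox8a 0.00037 (SE 0.054). The supercomplex factor Cox7a2l had -0.012 (SE 0.052), and Cox7c -0.16 (SE 0.12). The testis genes Cox7b2 (2.90 with vehicle and 2.87 with DHA) and Cox8c (3.73 and 3.72) and the muscle gene Cox8b (4.32 in both groups) lay under the filter and were not tested.

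**Figure D4:**
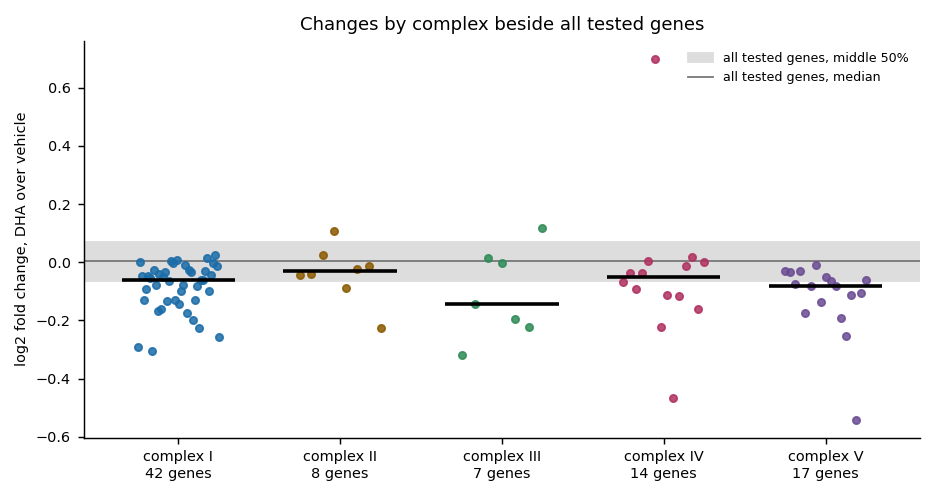
Log2 fold change (DHA over vehicle, vertical axis) of each tested member by complex, with 1 point a gene and black lines at the medians. The grey band holds the middle 50% of all tested genes and the grey line is their median, 0.0027. All 17 members of complex V lie below 0, and the medians of the 5 complexes lie between -0.14 and -0.032.

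Complex V, the ATP synthase, had 17 tested members, and in 17 of 17 the log2 fold change was below 0, with 0 called (median -0.082). At an unadjusted p under 0.05 there were 2 (11.8%, against 6.08% of all tested genes lower). Without DHA replicate 3, 14 of the 17 were below 0. Atp5mpl, a small proteolipid of the membrane part, had the lowest value of all members. It read 8.73, 9.30 and 8.53 with vehicle and 8.30, 8.43 and 8.19 with DHA. The groups were apart at -0.54, with a 95% interval from -0.99 to -0.091 (SE 0.19; limma adjusted p = 0.337), and without vehicle replicate 2 it was -0.32. Atp5o, which joins the stalk to the catalytic head, had -0.11 (SE 0.050; adjusted p = 0.472, limma), with groups apart, and Atp5k, a subunit of the dimer interface, -0.19 (SE 0.092; adjusted p = 0.475, limma), with groups that overlap. The value of Atp5k was -0.12 without vehicle replicate 3 and also without DHA replicate 1.

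By part of the enzyme, the 9 genes of the peripheral stalk and membrane part had a median of -0.11. The 5 of the F1 part, the catalytic head with its central stalk, had -0.034. In the F1 part, Atp5a1 and Atp5b, the subunits that form the catalytic sites, had -0.029 (SE 0.044) and -0.034 (SE 0.051). Atp5e, of the central stalk, had -0.18 (SE 0.16), where DHA replicate 3 read 8.82 against 9.43 and 9.33. A dimmer probe set of Atp5e had 0.0028. Atp5g1, Atp5g2 and Atp5g3 encode precursors of the same mature c subunit, which forms the proton-driven ring. Atp5g3 read 9.99, 10.05 and 9.98 with vehicle and 9.81, 9.86 and 9.93 with DHA, and its groups were apart (-0.14, SE 0.052; limma adjusted p = 0.367). Atp5g1 had -0.083 (SE 0.073) and Atp5g2 -0.011 (SE 0.067), both with overlapping groups.

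Lower and higher values were more evenly split in other lists of respiratory genes, a difference that was not tested. Of 13 subunits encoded in mitochondrial DNA 10 were measured, with 4 lower, 6 higher, 0 called and a median log2 fold change of 0.0015. All but ND6 had vehicle means between 12.66 and 13.15 on arrays whose maxima ran from 13.52 to 13.56. ND4 read 13.15 and ND4L 12.72 on each of the 3 DHA arrays. Whether changes are read in full so near the maxima was not tested, which limits the comparison with the members. ND6, encoded on the opposite strand from the rest, read 8.75, 8.97 and 8.44 with vehicle and 9.29, 8.85 and 9.22 with DHA (0.40, SE 0.16; limma adjusted p = 0.399). Its groups overlap. Complex III's cytochrome c1 gene Cyc1 had 0.025, cytochrome c itself (Cycs) -0.12 and the ATP synthase inhibitor Atpif1 -0.082.

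Further assembly factors, 33 measured of 36, had a median of 0.0033, with 15 lower, 18 higher and 0 called. The 3 with the smallest p were Coa4 (0.21, SE 0.067), a complex IV factor, Bcs1l (0.18, SE 0.067), which inserts the Rieske protein, and Sco1 (0.14, SE 0.054), a copper chaperone of complex IV. Genes of coenzyme Q synthesis or binding, 12 of 13, had a median of 0.039, with 5 lower, 7 higher and 0 called. Coq9 had 0.26 (SE 0.081), Coq10a 0.20 (SE 0.079) and Coq3 0.15 (SE 0.063), each with every DHA array higher and limma adjusted p of 0.297, 0.397 and 0.424. Citric acid cycle genes, 13 of 14, had -0.011, with 7 lower, 6 higher and 0 called. Idh3a (-0.21), Suclg1 (-0.098) and Ogdh (-0.091) had the smallest p. The phosphate and adenine nucleotide carriers Slc25a3, Slc25a4 and Slc25a5 had -0.010, -0.12 and 0.021.

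Regulators of respiratory genes, 15 tested of 16, had a median of -0.024, with 8 lower, 7 higher and 0 called. Tfb2m, which starts transcription of mitochondrial DNA, read 8.53, 8.91 and 8.58 with vehicle and 8.20, 8.33 and 8.10 with DHA. Its groups were apart (-0.47, SE 0.11; limma adjusted p = 0.200). The related Tfb1m, a methyltransferase of mitochondrial ribosomal RNA, had 0.26 (SE 0.099; limma adjusted p = 0.374), with groups apart in the other direction. The coactivator gene Ppargc1b had -0.11 (SE 0.051; adjusted p = 0.474, limma).

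**Figure D5:**
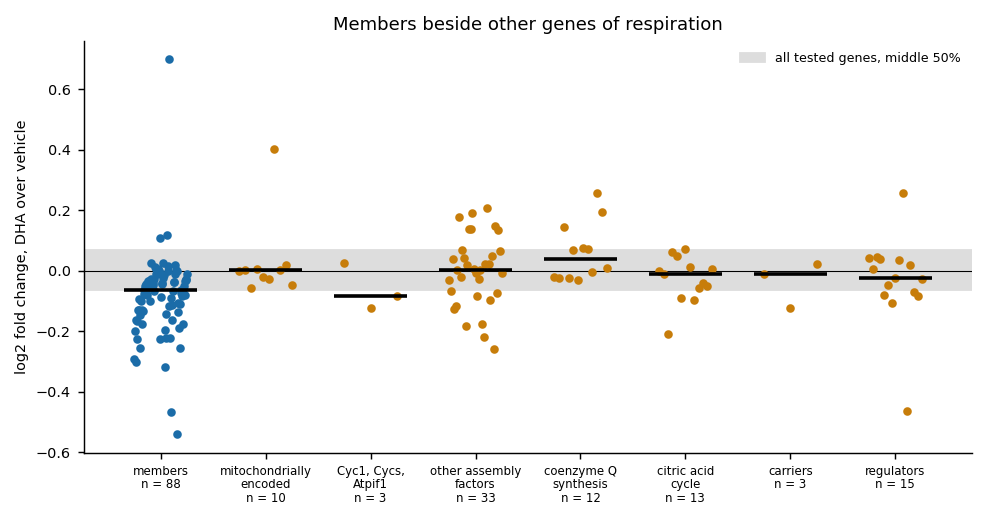
Log2 fold change (DHA over vehicle, vertical axis) of the tested members (blue) and of other genes of respiration (orange), with 1 point a gene and black lines at the medians. The grey band holds the middle 50% of all tested genes. The median of the members is -0.064 and that of the mitochondrially encoded subunits 0.0015, and the lone low point among the regulators is Tfb2m (-0.47).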

How the data were processed

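The authors deposited log2 intensities, 1 per probe set and array, summarised with RMA and with Partek 6.6 named, per the submitters' processing notes. The settings are not stated. Usual RMA equalises the distributions of arrays, which removes any shift common to all genes. Platform annotation gave 23521 of the 41345 probe sets 1 symbol, and the others entered no gene comparison. Symbols of other genes were updated through RefSeq (GRCm38.p6), which matched 23328. Dim genes (6-array mean below the 30th percentile, 4.52) were dropped, so 15526 were tested. The 2 groups were compared in limma 3.58.1 in R 4.3.3 (default moderation, two-sided, 4 residual degrees of freedom). Adjusted p-values are Benjamini-Hochberg over the 15526 genes, and intervals are unadjusted. The number of arrays, 3 per group, limits the precision. The procedure was tested on simulated data with 200 changed genes. It called 13.8% of the changes of 0.25 on the log2 scale and 85.4% of those of 0.5. The simulated noise was normal and independent between genes, and planted changes ran up to 2, so these shares need not hold for the real arrays. There, Cox6a2 (0.70) and Atp5mpl (-0.54) went uncalled. Small changes would thus mostly go uncalled, and larger ones may be.

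Members and lists were chosen with earlier results of these data known. Named are, per complex, the 4 members of smallest p, core subunits, isoform sets, untested members and, per companion list, the 3 genes of smallest p. Others, such as Sdhc, Uqcrq, Cox7c and Atp5e, were chosen once values were known. The alternatives covered left-out arrays, filters, scalings, probe set rules, moderation, array weights, a title-code term, thresholds and other member definitions.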

Additional observations from a re-analysis of the deposited data

How the results depend on the processing

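The count of members called was 0 in each of 22 alternatives, with 5 to 13 lower and 0 to 2 higher at an unadjusted p under 0.05 where refitted. Over all genes, 14 were called. That count was 0 to 24 when single arrays were dropped, 5 without the filter and 62 when the filter was raised to the 50th percentile. Scaling gave 52 (median centring) and 63 (quantile), and moderation 62 (trend and robust) and 1 (none). A term for the title code (a number shared by the titles of vehicle replicate 3 and DHA replicate 2) gave 41, dropping both arrays of that code 0, and dropping vehicle replicate 2 and DHA replicate 3 together, chosen after seeing the data, 0. Testing each probe set gave 2, and an adjusted p at or under 0.1 gave 80. Fewer arrays or a different number of tested features are part of some of these settings, and otherwise the cause was not tested. Unadjusted p under 0.05 was met by 1581, 1710, 1660, 1356 and 1545 genes where leaving out vehicle replicate 1, 2 or 3 or DHA replicate 1 or 3 gave 0 calls, by 1569 without the title-code arrays and by 1486 without vehicle replicate 2 and DHA replicate 3. The median of the members stayed below 0 in its alternatives (-0.098 to -0.046). That of complex III lay between -0.21 and -0.043 when single arrays were dropped and at -0.063 with vehicle replicate 2 and DHA replicate 3 both left out.

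Of 37 named members tested, 27 kept their sign in all alternatives run for them. Ranges on leaving out 1 array that include a reversal were -0.096 to 0.0037 for Ndufs1, -0.11 to 0.031 for Sdhb, -0.060 to 0.0055 for Atp5b, -0.095 to 0.057 for Cox4i2, -0.052 to 0.048 for Cox6a1, -0.039 to 0.10 for Cox7b, -0.033 to 0.030 for Cox8a, -0.054 to 0.050 for Atp5g2 and -0.097 to 0.033 for Ndufa4l2. With both arrays of the title code left out, reversed values were 0.0028 for Atp5a1, 0.044 for Cox4i2, -0.027 for Cox6a1, -0.012 for Cox7b and 0.050 for Ndufa4l2. With vehicle replicate 2 and DHA replicate 3 both left out they were 0.0012 for Sdhb, 0.015 for Atp5b, -0.0058 for Cox6a1, -0.0033 for Cox8a and 0.027 for Atp5g2. Others were -0.015 for Cox6a1 and -0.0056 for Cox8a with array weights, -0.0026 for Cox8a after median centring, and 0.014 and 0.039 for Atp5g2 with the mean of probe sets and the probe set of highest variance. No paired analysis was possible because the titles hold only 1 number common to both groups and replicate numbers follow accession order.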

Other observations

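A set of 10 probe sets names a respiratory gene together with another gene, which kept them out of the members. The brighter of a pair for Cox6c and Gm6265 had a DHA minus vehicle difference of -0.10 on the log2 scale and the dimmer 0.0075. The brighter for Ndufs6 and Ndufs6b had -0.13 and the dimmer -0.094. The probe set of Ndufb4, Ndufb4b and Ndufb4c had -0.22, that of Ndufb2 and Adck2 -0.13, and that of Uqcr10 and Gm6293 -0.0037. Higher values were 0.055 for Ndufs1 and Ino80dos, where every DHA array was higher, 0.065 for Uqcrb and Gm10767 and 0.092 for Ndufs5-ps and Ndufs5. Which of the named genes gives the signal cannot be told apart.

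Of 10 members with more than 1 probe set, the probe sets differed in the sign of the difference for Atp5e, Atp5g2, Atp5h, Cox5b and Sdhaf1. The dimmer Cox5b probe set had 0.086, against -0.036 for the brighter, and the dimmer Sdhaf1 probe set 0.047, against -0.040.

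Of the 88 tested members, 16 held a value that at least a pair of arrays shared exactly (18.2%), against 35.2% of all tested genes. In Ndufaf2, 3 arrays read 5.61, and in Atp5g1, 4 arrays read 6.10.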
